A study of Mus musculus with 6 samples.

Results

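Several genes known best from T and natural killer (NK) cells are described here in libraries of a myeloid progenitor, where some were higher and others lower in mice labelled Bap1 knockout. They are Tcf7, Tcrg-C1, Ncr1, Gzmb and Cd28, 5 of the 37620 genes in the deposited table. They were selected on their normalized counts in this same comparison, 2 for being higher with the knockout label and 3 for being lower. Their differences between the groups are therefore given as a description, with no test. The groups did not overlap for any of the 5, which their choice fixed, and of all 14391 genes with a mean of at least 10 normalized counts 42.9% had groups that did not overlap, 20.4% with the knockout-labelled group higher and 22.5% with it lower. T cells recognise antigen through paired receptor chains, alpha with beta or gamma with delta, held at the surface by the CD3 chains and CD247. CD28 adds a second, costimulatory signal, and the transcription factor TCF-1, made from Tcf7, is switched on early in T cell development. NK cells carry no such receptor and read their targets with activating and inhibitory receptors, among them NKp46, the product of Ncr1. Both kinds of cell kill with granzymes, proteases that they store in granules.

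The cells were granulocyte-macrophage progenitors (GMPs), the bone marrow stage that gives rise to granulocytes and monocytes. They were sorted from C57BL/6 mice by absence of lineage markers and Sca1, presence of c-Kit and CD34, and staining for Fcγ receptors. The lineage stain is meant to keep mature T, B and NK cells out. The mice labelled knockout, with 3 libraries, were MX1+ Cre Bap1 f/f, and the control mice, also with 3 libraries, were Bap1 f/f without Cre. Bap1 encodes a deubiquitinase that removes ubiquitin from histone H2A, and both of its alleles were floxed in both groups. Per the labels every mouse was taken at 65 days of age after polyI:polyC at day 42, whereas the series' design text gives an earlier age for the treatment. Both groups thus shared the floxed alleles and the interferon-inducing polyI:polyC, and the Cre transgene went with the knockout label alone. Cre was driven by the interferon-responsive Mx1 promoter, which is active in blood cells of all lineages and in other tissues, so the deletion is not limited to GMPs.

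The libraries held 19.464 to 24.085 M gene reads in the knockout-labelled group and 24.126 to 25.902 M in the control group. Values below are normalized counts, that is reads divided by 1 size factor per library, and 3 reads correspond to 2.665 to 3.426 normalized counts. Bap1 RNA went against the label. It stood at 2671, 3309 and 2968 normalized counts in the libraries labelled knockout, against 1343, 998.5 and 1076 in the control libraries (log2 difference 1.39 ± 0.14 SE, limma adjusted p = 6.07e-05). Which part of the gene those reads came from was not analysed here, so the level neither checks the deletion nor places it, and every direction below belongs to the library labels. Mpo, the granule enzyme myeloperoxidase of GMPs, was high in all 6 libraries and ran from 513000 to 758800 normalized counts in the knockout-labelled libraries and from 488600 to 523600 in the control libraries. Cd3e, Cd3g and Trac, 3 defining T cell genes, were low in every library, as described with the receptor chains below. Other genes of the T cell lists were not all low. Cd27, named after its values were seen, averaged 413.5 in knockout-labelled and 1647 in control libraries, and Foxp3 is given with the transcription factors. Nothing in the labels says that the 3 libraries of a group came from separate mice, so p-values measure the spread between these libraries, which may be technical.

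Promoter windows were at hand for 3 of the 5 genes, Tcf7, Ncr1 and Gzmb. RefSeq windows on GRCm38.p6, from 250 bases before to 50 bases after a transcript start, are shown for Ncr1 and Gzmb because these genes of killer cells were lower together. CpG dinucleotides and the core RUNX motif TGTGGT, or its reverse complement ACCACA, are in capitals, and the motif and CpG cannot overlap.
Ncr1: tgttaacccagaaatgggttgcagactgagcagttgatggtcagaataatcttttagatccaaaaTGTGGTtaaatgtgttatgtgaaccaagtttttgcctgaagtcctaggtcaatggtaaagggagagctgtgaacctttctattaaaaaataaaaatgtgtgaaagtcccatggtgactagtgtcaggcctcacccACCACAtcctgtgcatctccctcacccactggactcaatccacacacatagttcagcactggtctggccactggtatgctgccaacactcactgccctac
Gzmb: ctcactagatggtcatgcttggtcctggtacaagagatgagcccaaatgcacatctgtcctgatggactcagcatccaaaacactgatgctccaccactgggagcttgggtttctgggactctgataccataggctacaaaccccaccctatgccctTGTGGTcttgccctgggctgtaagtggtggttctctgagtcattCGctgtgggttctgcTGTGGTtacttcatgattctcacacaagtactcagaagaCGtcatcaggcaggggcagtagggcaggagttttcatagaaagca
The Ncr1 window, at chr7:4337474-4337773 on the plus strand, held 0 CpG dinucleotides, as did 5.4% of the 32851 windows in the table. The Gzmb window, at chr14:56262285-56262584 on the minus strand, held 2, and 23.3% of all windows held as few. The median window held 7, so both lay at the CpG-poor end. The RUNX letters, on either strand, were found 185 and 50 bases upstream of the Ncr1 start and 93 and 34 bases upstream of the Gzmb start, and 16.8% of all windows held at least 1 match. The window of Tcf7, a gene that was higher, is not printed and looked unlike these. It held 45 CpG dinucleotides, more than 98.1% of all windows, and 0 RUNX matches. For Tcf7 and for Ncr1 it was 1 of 2 windows, the one nearest the annotated start of the gene. A reading frame runs through the Tcf7 window from an ATG upstream of its start, so it may hold coding sequence of a longer transcript. In GENCODE M21, 0 of its bases are annotated as coding, against 25 in the Ncr1 window. The contrast may therefore set unlike kinds of sequence side by side. A match of letters is a description of the window and no evidence of binding.

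Tcf7 (ENSMUSG00000000782, chromosome 11) encodes TCF-1, which binds DNA as the nuclear partner of beta-catenin and is needed for T cell development and for the precursors of innate lymphoid cells. Its level was 518.4, 348.8 and 504.7 normalized counts in the libraries labelled knockout, against 39.98, 57.33 and 29.41 in the control libraries. The groups did not overlap, and the lowest knockout-labelled library stood well above the highest control library. The means were 457.3 ± 94.24 in knockout-labelled and 42.24 ± 14.09 in control libraries (SD, n = 3 each), a 10.8-fold difference, or 3.43 on the scale of log2(normalized count + 1). These values rested on 335 to 486 reads per knockout-labelled library and 33 to 60 reads per control library. Among all genes tested, the mean level of Tcf7 lay at the 54.5th percentile in the knockout-labelled group and at the 17.3rd in the control group, so it was a gene of middling abundance in one and a weak one in the other.

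Tcrg-C1 (ENSMUSG00000076749, chromosome 13) is a constant segment of the T cell receptor gamma chain. Its level was 331.8, 218.6 and 732.0 normalized counts in the libraries labelled knockout, against 0, 1.911 and 0 in the control libraries. Every knockout-labelled library held reads of it, and the control libraries held 2 reads among them. The knockout-labelled libraries themselves spread 3.35-fold, with library 3 highest and library 2 lowest, and library 2 was also the lowest for Tcf7. The 1162 reads against 2 gave a ratio of 690, with a 95% interval of 190.6 to 5704 that covers counting error only. The log2 difference was 8.04, and it depends on the pseudocount because the control libraries were at or near 0.

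The gamma locus has several constant segments with nearly the same sequence, so the reads could have been split among them or left unassigned. The first 90 bases of each constant transcript (GENCODE M21, GRCm38, all on chromosome 13) are shown to let the copies be compared, with bases that differ from Tcrg-C1 in capitals.
Tcrg-C1: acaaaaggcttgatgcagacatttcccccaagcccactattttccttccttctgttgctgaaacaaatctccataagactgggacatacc
Tcrg-C2: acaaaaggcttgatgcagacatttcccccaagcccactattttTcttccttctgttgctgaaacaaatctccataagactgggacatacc
Tcrg-C3: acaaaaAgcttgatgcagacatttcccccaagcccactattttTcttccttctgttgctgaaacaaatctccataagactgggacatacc
Tcrg-C4: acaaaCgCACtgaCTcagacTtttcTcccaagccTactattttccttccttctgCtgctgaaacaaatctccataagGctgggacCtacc
Over the whole aligned transcript, identity to Tcrg-C1 was 95.9% for Tcrg-C2, 97.2% for Tcrg-C3 and 67.5% for Tcrg-C4. Of all 50-base windows of the Tcrg-C1 transcript, 65.8% occurred in no other annotated transcript, and the rest were shared with Tcrg-C2 or Tcrg-C3. For Tcf7, Ncr1, Gzmb and Cd28 the unique share was 100%. Tcrg-C2 had 1.067, 0 and 2.284 normalized counts and Tcrg-C3 had 3.20, 0 and 5.710 in the libraries labelled knockout, and both were at 0 in the control libraries. Tcrg-C4, the most divergent copy, went the other way, with 0 in all the libraries labelled knockout against 9.773, 5.733 and 0 in the control libraries. The high reads therefore lay on 1 of the 4 constant segments, at least as far as uniquely aligned reads can tell the near-identical copies apart.

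**Figure D1:**
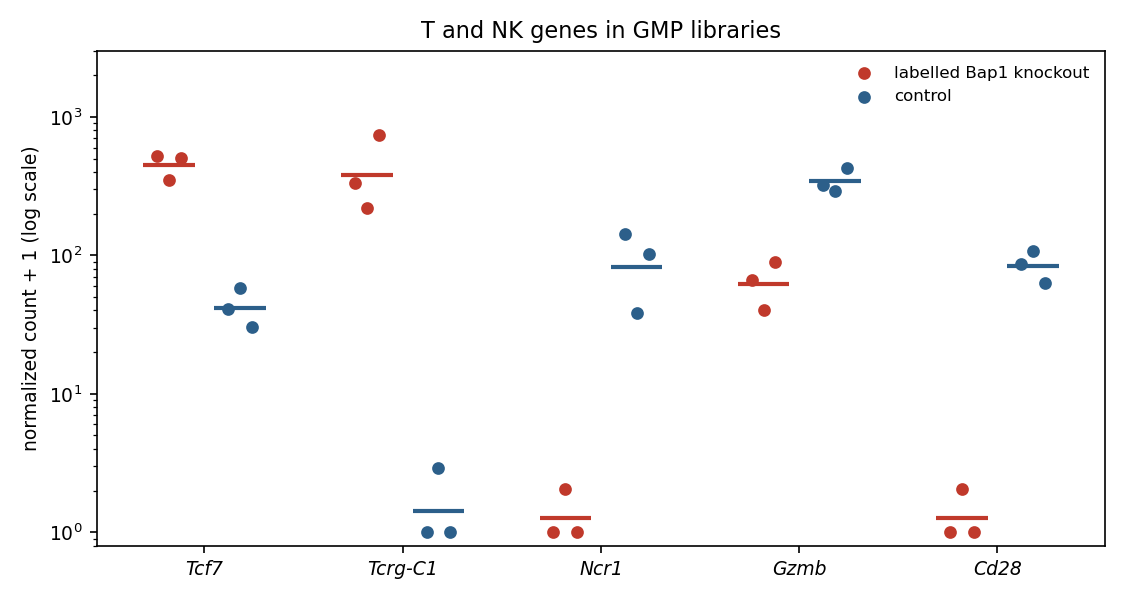
Normalized counts plus 1 on a log scale for the 5 genes in each library, with knockout-labelled libraries in red left of control libraries in blue and a bar at each group's mean of log values. Tcf7 and Tcrg-C1 lie higher in red and Ncr1, Gzmb and Cd28 higher in blue, with no overlap for any of them, and 3 of the 5 lie at or near 0 in 1 group.

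The other chains of the T cell receptor complex that were found were low in both groups. The delta constant segment, Trdc, was not found by its symbol and has no value here. Of the 10 other receptor and CD3 chain genes found in the table, all had a read, 2 were abundant enough to test and neither passed. Their summed level was 16.65 to 87.93 normalized counts in the libraries labelled knockout, against 73.09 to 103.1 in the control libraries. Cd3e, a core signalling chain of the complex, had 10.67, 0 and 0 normalized counts in the libraries labelled knockout, against 1.777, 0 and 0.8913 in the control libraries. Cd3g had 0, 0 and 7.993 in the libraries labelled knockout, against 15.99, 8.599 and 24.96 in the control libraries. Trac, the constant segment of the alpha chain, had at most 1.041 in the libraries labelled knockout and at most 6.688 in the control libraries. These 3 defining T cell genes were thus at 10.67 or below in the libraries where Tcrg-C1 was high. Cd247, the zeta chain, averaged 21.8 ± 18.7 in knockout-labelled and 29.7 ± 3.96 in control libraries (SD, n = 3 each, adjusted p = 0.396), and 56.4% of its exon bases overlap Pou2f1 on the opposite strand, so its value is uncertain because the sources used here do not say whether counting used strand. Trbc1, a beta constant segment, averaged 15.8 ± 12.8 in knockout-labelled and 18.1 ± 6.90 in control libraries (adjusted p = 0.558).

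**Figure D2:**
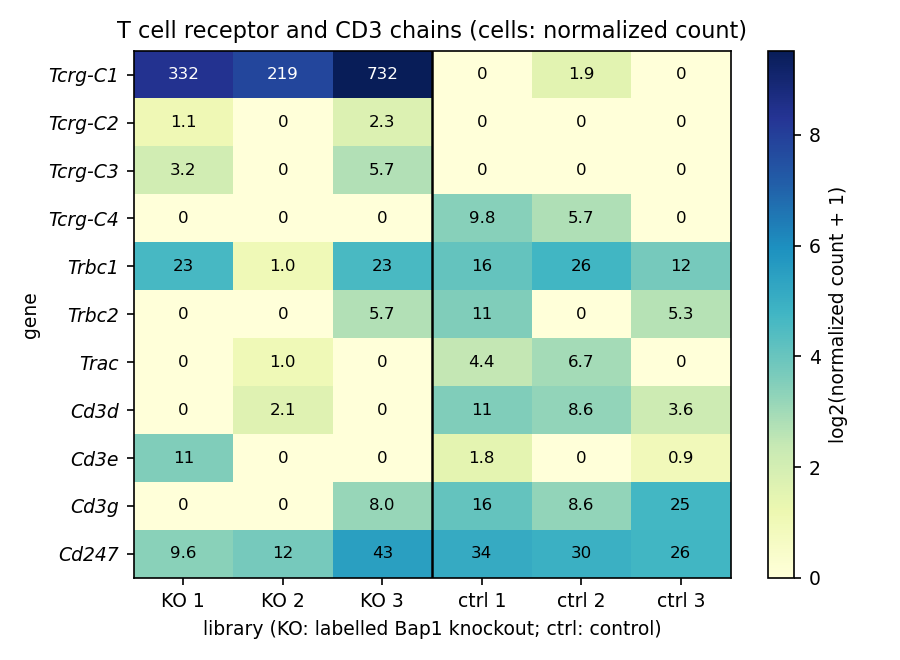
Normalized counts of the T cell receptor and CD3 chains, with 1 row per gene and 1 column per library, shaded by log2(normalized count + 1), and knockout-labelled libraries left of the line. The Tcrg-C1 row is dark in all 3 knockout-labelled columns, while no other value in the plot is above 43.4.

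The remaining receptor segments were mostly silent. The 10 other gamma segments held 11 reads in the knockout-labelled libraries and 25 in the control libraries, summed over 3 libraries each. The 7 delta segments that were found held 3 reads in the knockout-labelled and 57 in the control libraries. Of those 57 reads, 54 were of the variable segment Trdv4, 42 of them in control library 3. Because Trdc has no value, these segments do not show whether the delta constant segment was transcribed. The gamma variable segments with a read, Tcrg-V1 and Tcrg-V3, had none in the knockout-labelled libraries. The 93 alpha segments held 44 reads in the knockout-labelled libraries and 41 in the control libraries. The beta locus was the exception among the rest. Its 36 segments summed to 162.1, 92.66 and 185.0 normalized counts in the libraries labelled knockout, against 44.42, 50.64 and 49.92 in the control libraries, with no overlap. Most of this came from a pair of variable segments, singled out after their values were seen. Trbv13-2 had 64.00, 45.81 and 122.2 normalized counts in the libraries labelled knockout against 8.885, 16.24 and 18.72 in the control libraries (limma adjusted p = 0.0062). Trbv3 had 46.94, 29.15 and 23.98 in the libraries labelled knockout against 0, 0 and 7.131 in the control libraries (limma adjusted p = 0.00798). Variable segments carry no information on whether they were joined to a constant segment, which was not analysed here.

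Cd28 (ENSMUSG00000026012, chromosome 1) encodes the receptor through which T cells receive costimulation from CD80 and CD86 on antigen-presenting cells. Its level was 0, 1.041 and 0 normalized counts in the libraries labelled knockout, against 85.30, 106.1 and 62.39 in the control libraries. A single read was found in the 3 knockout-labelled libraries together, against 277 in the control libraries. The control over knockout-labelled ratio was 233.2 (95% interval 41.52 to 9245, counting error only), and the log2 difference was -6.04. In the control libraries the spread was small, with a mean of 84.6 ± 21.8 (SD, n = 3), at the 25.9th percentile of the genes tested.

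Ncr1 (ENSMUSG00000062524, chromosome 7) encodes NKp46, an activating receptor carried by NK cells and by some innate lymphoid cells. Its level was 0, 1.041 and 0 normalized counts in the libraries labelled knockout, against 142.2, 37.26 and 101.6 in the control libraries. Here too a single read stood against 313, and the ratio of control over knockout-labelled was 263.6 (95% interval 46.96 to 10440, counting error only). The log2 difference was -6.02. Ncr1 and Cd28 matched in the libraries labelled knockout, both with their only read in library 2, and differed in the control libraries. Ncr1 was lowest in control library 2 and spread 3.81-fold, while Cd28 was highest in that library.

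Gzmb (ENSMUSG00000015437, chromosome 14) encodes granzyme B, the granule protease that starts cell death in the target of a killer cell. Its level was 65.07, 39.56 and 87.93 normalized counts in the libraries labelled knockout, against 321.6, 288.6 and 424.3 in the control libraries. The groups did not overlap, but unlike Ncr1 and Cd28 it kept 38 to 77 reads in every knockout-labelled library. The means were 64.2 ± 24.2 in knockout-labelled and 344.8 ± 70.8 in control libraries (SD, n = 3 each), 5.37-fold lower with the knockout label, or -2.46 on the log2 scale. Gzmb was the most abundant of the 5 in the control libraries, at the 47.9th percentile of the genes tested.

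All 5 genes passed the minimum mean of 10 normalized counts, and Tcrg-C1, Ncr1 and Cd28 did so through 1 group alone. On the scale of normalized counts per kilobase of exon, which allows levels of different genes to be set side by side, the knockout-labelled means were 462.6 for Tcrg-C1, 174.2 for Tcf7, 44.7 for Gzmb, 0.225 for Ncr1 and 0.0567 for Cd28. The control means per kilobase were 240.1 for Gzmb, 60.8 for Ncr1, 16.1 for Tcf7, 13.8 for Cd28 and 0.689 for Tcrg-C1. Gzmb, Ncr1 and Cd28 kept this order among themselves in both groups, and the places of Tcf7 and Tcrg-C1 followed from the choice of genes. In knockout-labelled libraries the mean counts of Tcf7 and Tcrg-C1, 457.3 and 427.5, lay close, while their order changed between libraries. The per-library counts of Ncr1 and Cd28 were the same there. Neither pair can thus be ranked in that group beyond its spread except through transcript length. In bulk RNA, fewer cells of a type and less RNA per cell cannot be told apart, for these genes and for all those below.

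The other T and NK genes, in 8 lists by role, held 150 genes in the table besides the 5. Of these 135 had a read and 91 were tested, among which 10 were called higher (10.99%) and 31 lower (34.1%) by limma at an adjusted p under 0.05. Of all 14391 genes tested, 26.8% were called, 11.8% higher and 15.0% lower. The median log2 difference of the 91 was -0.70, against 0.01 for all genes tested. Many of those lower were weak in the knockout-labelled libraries: 13 of the 31 averaged under 10 normalized counts there and passed the minimum through the control group alone. With a minimum mean of 50, 57 of the genes were tested, 9 were higher and 13 lower, and their median was -0.05, beside 1575 higher and 1928 lower of 11638 genes tested at that minimum. Such a minimum also removes genes that are near 0 in 1 group, Ncr1 and Cd28 among them. Both directions occurred at either minimum.

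**Figure D3:**
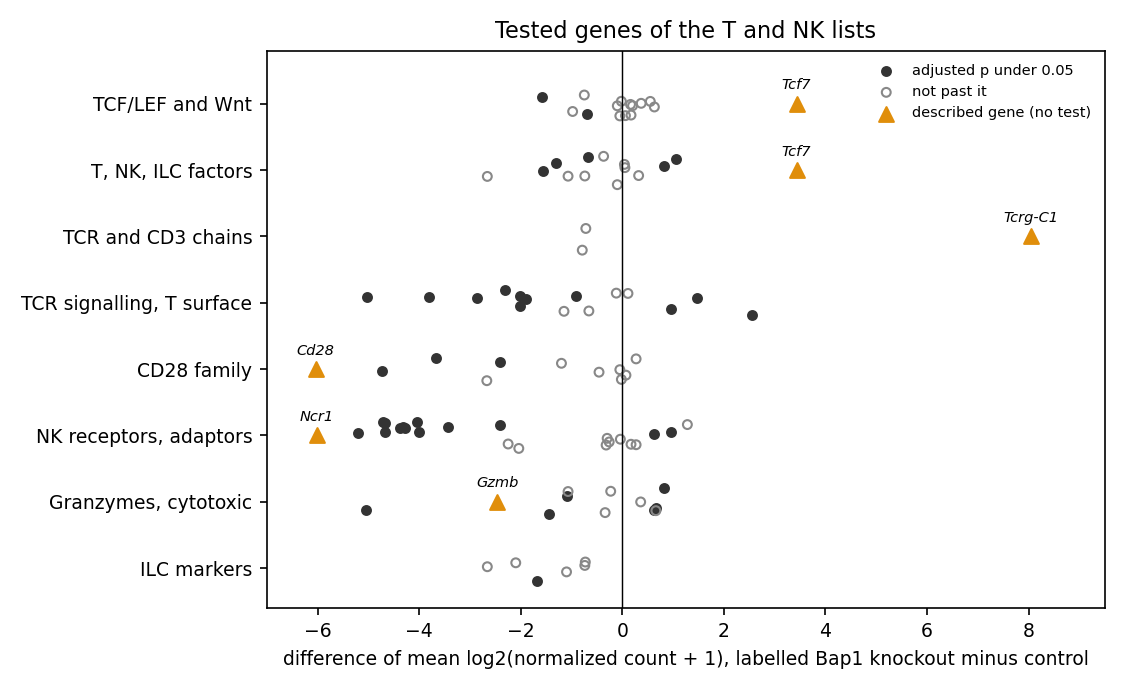
Difference of mean log2(normalized count + 1), knockout-labelled minus control, for each tested gene of the 8 T and NK lists, with filled points past an adjusted p of 0.05, open points not past it and triangles for the 5 described genes. The NK receptor row holds the largest group of points far to the left, and the Tcf7 triangle lies to the right of every other point in both of its rows.

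Partners and targets of TCF-1 gave few calls. Of 14 tested genes of the TCF/LEF and Wnt list, 0 were called higher and 2 lower, with a median of 0.02. These shares, 0% and 14.3%, stand beside 11.8% and 15.0% of all genes tested. With the GC and length correction 1 gene of the list was called higher, Gsk3b, a kinase that marks beta-catenin for breakdown (log2 difference 0.34, adjusted p = 0.0351, against 0.20 and 0.284 without the correction). Both of those lower were small or weak. Rnf43, a ligase that removes Wnt receptors, averaged 15.0 ± 8.30 normalized counts in knockout-labelled and 44.1 ± 10.4 in control libraries (log2 difference -1.59 ± 0.51 SE, limma adjusted p = 0.0384). That call was lost without any 1 of 5 libraries (knockout-labelled 2 or 3, or any control library, adjusted p 0.0788 to 0.14) and in edgeR (0.0549). Pygo2, a beta-catenin cofactor, averaged 291.1 ± 59.3 in knockout-labelled and 468.4 ± 42.7 in control libraries (log2 difference -0.70 ± 0.20 SE, adjusted p = 0.0208), and its call was lost without knockout-labelled library 3, control library 1 or control library 2 (0.0548, 0.0638 and 0.0902). Myc, a well-known Wnt target, averaged 3690 ± 1084 in knockout-labelled and 3262 ± 637.5 in control libraries (adjusted p = 0.591). Lef1, the closest relative of Tcf7, was too low to test, at 0, 6.247 and 2.284 normalized counts in the libraries labelled knockout against 7.108, 14.33 and 10.70 in the control libraries.

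Among the other transcription factors of T, NK and innate lymphoid cells, 2 of 13 tested were higher and 3 lower. The shares, 15.4% and 23.1%, stand beside 11.8% and 15.0% of all genes tested. Zeb2, a repressor used in late NK and effector T cells and also in myeloid cells, averaged 760.0 ± 127.5 normalized counts in knockout-labelled and 2223 ± 111.2 in control libraries (log2 difference -1.56 ± 0.15 SE, limma adjusted p = 3.58e-05). Ets1, a factor needed for NK and T cells, averaged 308.9 ± 118.1 in knockout-labelled and 726.8 ± 109.1 in control libraries (adjusted p = 0.00404). The other lower gene was Foxp3, named after its values were seen. It averaged 535.9 ± 117.4 in knockout-labelled and 858.3 ± 176.6 in control libraries (limma adjusted p = 0.0297), and its call was not followed with single libraries left out. Both higher genes have roles in innate-like lymphocytes and in other blood cells. Id2, an inhibitor of E proteins, averaged 2636 ± 931.6 in knockout-labelled and 1448 ± 256.2 in control libraries (adjusted p = 0.0306). Its groups overlapped, with 1567 in knockout-labelled library 3 and 1677 in control library 1. Zbtb16, which encodes PLZF, averaged 710.3 ± 415.2 in knockout-labelled and 304.5 ± 46.4 in control libraries (adjusted p = 0.0472), and its groups overlapped too. Neither held up to leaving out single libraries. For Id2 the adjusted p was 0.104, 0.125, 0.123 and 0.0661 without knockout-labelled library 1 or 2 or control library 2 or 3. For Zbtb16 it was 0.132 and 0.147 without knockout-labelled library 2 or 3, and 0.0591, 0.128 and 0.121 without control library 1, 2 or 3. Bcl11b, a factor that commits cells to the T lineage, had 0 reads in the knockout-labelled and 1 read in the control libraries.

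Genes of the T cell surface and of receptor signalling went both ways, with 3 of 15 tested genes higher and 8 lower (median -1.15). Those shares were 20.0% and 53.3%, beside 11.8% and 15.0% of all genes tested. Of the 8 lower, 3 averaged under 10 normalized counts in the knockout-labelled libraries and passed the minimum through the control group alone. They are the lower genes named next, Cd2, Skap1 and Sh2d2a. Cd2, an adhesion receptor, had no read in the libraries labelled knockout and 36.43, 19.11 and 44.57 normalized counts in the control libraries, which makes it at least 10.3-fold lower at a floor of 3 reads per library (limma adjusted p = 0.00122). Skap1, an adaptor, averaged 2.78 in knockout-labelled and 31.2 in control libraries (adjusted p = 0.0146), a call lost without control library 2 or 3 (0.0525 and 0.0761). Sh2d2a, another adaptor, averaged 2.18 in knockout-labelled and 22.5 in control libraries (adjusted p = 0.0383), and its call was lost without knockout-labelled library 1 or 2 (0.0793 and 0.05) or control library 2 or 3 (0.0627 and 0.0732). The 3 higher genes were Cd5, Cd6 and Lat, of which Cd6 and Lat were named after their values were seen. Cd5, an inhibitory co-receptor of T cells, averaged 22.2 ± 16.8 normalized counts in knockout-labelled and 2.69 ± 1.75 in control libraries (log2 difference 2.55 ± 0.81 SE, adjusted p = 0.0363). Its relative Cd6 averaged 148.1 ± 59.4 in knockout-labelled and 51.7 ± 17.5 in control libraries (adjusted p = 0.0173). Lat, the adaptor that passes on the receptor signal and that mast cells and platelets also use, averaged 385.0 ± 148.3 in knockout-labelled and 191.3 ± 44.9 in control libraries (adjusted p = 0.0303). Each of these 3 calls was lost when single libraries were left out. Without knockout-labelled library 3 the adjusted p was 0.0593 for Cd5, 0.0638 for Cd6 and 0.101 for Lat. It was 0.0651 and 0.101 for Cd5 without control library 1 or 2, 0.0678 and 0.0677 for Cd6 without knockout-labelled library 2 or control library 3, and 0.0632 and 0.122 for Lat without knockout-labelled library 1 or control library 2.

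Beside Cd28, its relatives and ligands were lower where they moved. Of 10 tested genes of that list 3 were lower (30.0%, beside 15.0% of all genes tested) and 0 higher (median -0.83). Cd86, a ligand of CD28 carried by antigen-presenting cells, had 7.467, 11.45 and 11.42 normalized counts in the libraries labelled knockout, against 138.6, 111.8 and 171.1 in the control libraries (log2 difference -3.67 ± 0.40 SE, limma adjusted p = 7.97e-05). Btla, an inhibitory relative of CD28 that B cells and dendritic cells also carry, averaged 14.4 ± 12.1 in knockout-labelled and 270.5 ± 65.5 in control libraries (log2 difference -4.73 ± 0.75 SE, adjusted p = 9.34e-04). Cd274, which encodes PD-L1, averaged 12.0 ± 4.99 in knockout-labelled and 65.4 ± 15.5 in control libraries (log2 difference -2.41 ± 0.49 SE, adjusted p = 0.00414). All 3 are surface proteins of antigen-presenting cells. Downstream of the receptor, Vav1, an exchange factor of all blood cells, averaged 4826 ± 449.9 in knockout-labelled and 4594 ± 189.9 in control libraries (adjusted p = 0.695).

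Many NK receptors and adaptors were lower. Of 22 tested besides Ncr1, 11 were lower, beside 15.0% of all genes, and 2 higher, with a median of -2.33, and 9 of the 11 averaged under 10 normalized counts in the knockout-labelled libraries. Klra7, Klra8 and Klre1, lectin-like receptors of one gene cluster, had no read in the libraries labelled knockout. Klra7 averaged 37.4 ± 13.05 normalized counts in the control libraries, at least 11.5-fold lower with the knockout label (limma adjusted p = 7.76e-04), and Klra8 averaged 31.3 ± 20.5 there, at least 9.64-fold lower (adjusted p = 0.00436). Klre1 averaged 30.2 ± 17.9, at least 9.29-fold lower (adjusted p = 0.00337). Klrc2, which pairs with CD94 as an activating receptor, had 1 read in the knockout-labelled and 109 in the control libraries, a ratio of 91.8 (95% interval 16.13 to 3658, adjusted p = 0.00162). The Klra and Klrc genes have close copies beside each other, among which uniquely aligned reads can be lost or split. The 2 higher genes, named after their values were seen, are not restricted to NK cells. Hcst, the adaptor DAP10, averaged 342.5 ± 92.7 in knockout-labelled and 174.3 ± 31.7 in control libraries (adjusted p = 0.0145), and Cd244a, an adhesion-family receptor, averaged 690.7 ± 167.8 in knockout-labelled and 436.6 ± 9.30 in control libraries (adjusted p = 0.03). The Hcst call was lost without knockout-labelled library 2, control library 2 or control library 3 (0.0603, 0.0602 and 0.0531), and the Cd244a call without any library but knockout-labelled 2 (0.0641 to 0.0923).

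The order of the control libraries, which played no part in choosing the genes, differed between Ncr1 and Cd28. Ncr1 was lowest in control library 2, as were 16 of the 22 other tested NK genes (72.7%), 53.3% of the T cell surface and signalling genes, 57.1% of the plasmacytoid dendritic cell genes and 1 of 8 B cell genes, against 34.5% of all genes tested. Its full order, with control library 1 highest and 2 lowest, was shared by 9 of the 22 NK genes (40.9%) and 4 of the 7 plasmacytoid dendritic cell genes (57.1%), against 18.6% of all genes. It was thus not particular to NK genes. Cd28 and Tcf7 had another order, with control library 2 highest and 3 lowest. That order was found in 5 of 8 B cell genes, 6 of 14 TCF/LEF and Wnt genes (42.9%) and 0 of the 10 other CD28-family genes, against 15.4% of all genes. The counts describe 3 libraries whose genes share depth and cells, so they carry no test.

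**Figure D4:**
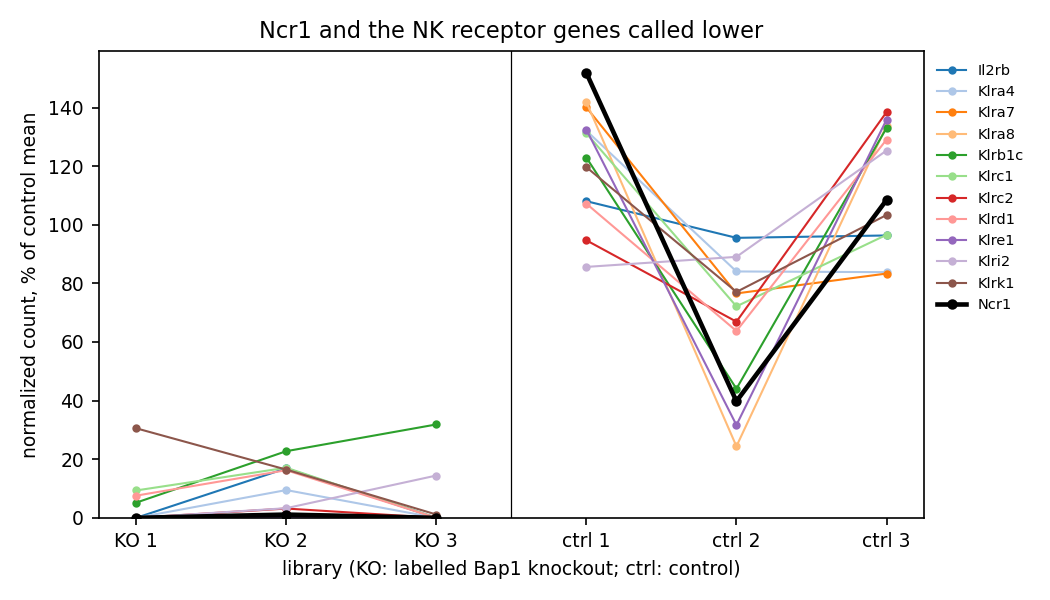
Normalized count as a percent of the control mean for Ncr1 (black) and the 11 NK receptor genes called lower, in each library, with lines joining the libraries of a group to help the eye. All lie below 33% in the knockout-labelled libraries, and in the control libraries Ncr1 and most of the others dip in library 2.

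In the cytotoxic granule list, 3 of the 11 tested genes besides Gzmb were higher and 3 lower (median -0.23). Each share was 27.3%, beside 11.8% higher and 15.0% lower of all genes tested. Gzma, the other main granzyme of NK cells, had 0, 6.247 and 0 normalized counts in the libraries labelled knockout, against 100.4, 78.35 and 32.09 in the control libraries (log2 difference -5.05 ± 0.88 SE, limma adjusted p = 0.00164). Unlike Gzmb it was nearly absent from the knockout-labelled libraries. Ctsc, the protease that activates granzymes and also the serine proteases of neutrophils and mast cells, averaged 1934 ± 329.1 in knockout-labelled and 5223 ± 253.8 in control libraries (adjusted p = 3.63e-05). Stx11, needed for granule release, averaged 170.5 ± 62.9 in knockout-labelled and 350.5 ± 50.7 in control libraries (adjusted p = 0.0113), a call lost without control library 2 (0.0579). The 3 higher genes are not restricted to killer cells. Srgn, the proteoglycan serglycin on which granule proteases are packed, averaged 129900 ± 29780 in knockout-labelled and 72570 ± 3094 in control libraries (adjusted p = 0.00497). Nkg7 averaged 46710 ± 9865 in knockout-labelled and 28950 ± 942.7 in control libraries (adjusted p = 0.00756) and Unc13d, a release factor, 869.6 ± 235.3 in knockout-labelled and 552.0 ± 42.5 in control libraries (adjusted p = 0.0365), both named after their values were seen. The Unc13d call was lost without knockout-labelled library 2 or 3 or any control library (0.0595 to 0.118). Perforin (Prf1) was too low to test, at 2.133, 0 and 12.56 normalized counts in the libraries labelled knockout and 20.44, 6.688 and 15.15 in the control libraries. The clustered granzymes Gzmc, Gzmd, Gzme, Gzmf, Gzmg and Gzmn were at 0 in all 6 libraries.

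The innate lymphoid markers, with a median of -1.40, gave 1 lower gene of 6 tested (16.7%, beside 15.0% of all genes tested). It was Il1rl1, the receptor for interleukin-33, also carried by mast cells and basophils, which averaged 18.04 ± 8.84 in knockout-labelled and 56.4 ± 4.61 in control libraries (limma adjusted p = 0.019). The call was lost without knockout-labelled library 2 (0.0517) and without control library 1, 2 or 3 (0.0561, 0.0571 and 0.073).

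Genes of other cells and stages moved as well, and their part in the results above was not tested. All 8 tested B cell markers were lower (median -4.59, or -4.17 with genes at 0 reads set to their bound), beside 15.0% of all genes, and 5 of the 8 averaged under 10 normalized counts in the knockout-labelled libraries and so passed the minimum through the control group alone. The list summed to 1103 to 1432 normalized counts in the libraries labelled knockout and 2308 to 2762 in the control libraries. Most of that sum was Cd79b, a B cell receptor chain named after its values were seen, with 1131 ± 157.3 in knockout-labelled and 1791 ± 149.6 in control libraries (limma adjusted p = 0.00479). Vpreb3, a gene of B cell precursors, had no read in the libraries labelled knockout and 64.9 ± 17.1 normalized counts in the control libraries (limma adjusted p = 1.48e-04). Of 7 tested plasmacytoid dendritic cell markers 6 were lower (85.7%, beside 15.0% of all genes) and 1 higher (14.3%, beside 11.8%). Of the 6 lower, 3 averaged under 10 normalized counts in the knockout-labelled libraries and so passed the minimum through the control group alone. The list summed to 897.4 to 1052 in the libraries labelled knockout and 2524 to 2929 in the control libraries. Of 11 tested lymphoid-primed progenitor genes 4 were lower (36.4%, beside 15.0% of all genes) and 0 higher, and 2 of the 4 averaged under 10 in the knockout-labelled libraries. Among them Dntt, the enzyme that adds bases at receptor joints, averaged 43.2 ± 15.7 in knockout-labelled and 326.2 ± 104.0 in control libraries (adjusted p = 1.99e-04), and Rag2, a subunit of the recombinase, averaged 1.39 in knockout-labelled and 48.6 ± 8.12 in control libraries (adjusted p = 0.00133). Both enzymes mark lymphoid progenitors before the T and B lineages part. The Rag2 value is uncertain, because 6.1% of its exon bases overlap B230118H07Rik on the opposite strand and strand use is not known. That gene had 427.8, 544.5 and 251.2 normalized counts in the libraries labelled knockout, against 1708, 1640 and 1611 in the control libraries. Rag1, the other recombinase subunit, was too low to test, with 0 reads in the knockout-labelled and 6 in the control libraries.

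The basophil and mast cell markers are given beside Gzmb, which mouse mast cells are also known to make, and their part in its difference was not tested. Of 8 tested, 5 were lower (62.5%, beside 15.0% of all genes tested) and 1 higher (12.5%, beside 11.8%). The list summed to 20070 to 29970 normalized counts in the libraries labelled knockout and 50870 to 61140 in the control libraries. The higher gene, named after its values were seen, was Mcpt8, a defining basophil protease, with 10910 ± 2388 in knockout-labelled and 7027 ± 1139 in control libraries (limma adjusted p = 0.0168). Prss34, another basophil protease, averaged 891.0 ± 294.5 in knockout-labelled and 27880 ± 3337 in control libraries (limma adjusted p = 1.46e-07). Ms4a2, the beta chain of the IgE receptor, averaged 615.5 ± 168.1 in knockout-labelled and 2958 ± 435.3 in control libraries (log2 difference -2.29 ± 0.20 SE, adjusted p = 2.02e-05). The order of Gzmb among the knockout-labelled libraries, library 3 highest and library 2 lowest, was shared by 4 of the 8 basophil and mast cell genes, and 5 of the 14 TCF/LEF and Wnt genes (35.7%), against 15.8% of all genes tested. Its order among the control libraries was shared by 1 of the 8 basophil and mast cell genes (12.5%), against 15.95% of all genes. Among 13 tested GMP markers 6 were higher (46.2%, beside 11.8% of all genes tested) and 2 lower (15.4%, beside 15.0%). Among genes of the sort markers the directions differed at the RNA level. Cd34 was lower (3963 ± 243.6 in knockout-labelled and 11500 ± 296.5 in control libraries, limma adjusted p = 5.04e-06). The Fcγ receptor gene Fcgr3 was lower too (7836 ± 1485 and 13250 ± 728.1, adjusted p = 0.00198). Kit, which encodes c-Kit, was higher (1524 ± 151.5 and 1096 ± 86.07, adjusted p = 0.0214), and Fcgr2b was not called (0.346). Both of these were named after their values were seen.

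The nearest profiles over the 6 libraries differed for each gene. Nearness was the root-mean-square distance of log2(normalized count + 1) after centring each gene on its own mean, over 14391 genes, and it reflects mainly the size of the group difference. Tcf7 lay nearest to Map3k9, a kinase (distance 0.193, r = 0.995 over 6 libraries), then Zfp112 (0.234) and Cyb561 (0.254), none of which was in the T and NK lists. Map3k9 had 84.27, 82.25 and 109.6 normalized counts in the libraries labelled knockout, against 6.219, 11.47 and 4.457 in the control libraries. Tcrg-C1 lay nearest to Olfm5 (0.649), with 150.4, 76.00 and 328.9 normalized counts in the libraries labelled knockout and 0 in every control library, then to Smoc2 (0.994) and Meiob (1.078), both also at 0 in the control libraries. Tcrg-C1 itself had 2 reads there.

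Ncr1 lay nearest to Ifi44 (0.417), an interferon-induced gene, then Sh2d4a (0.471) and Abca9 (0.614). Cd28 lay nearest to Abca9 (0.320), Vpreb3 (0.350) and Bcat1 (0.424), so that the B lineage gene described above was among its closest. Gzmb lay nearest to Ms4a2, the IgE receptor chain (0.144, r = 0.997 over 6 libraries), then Rfx3 (0.167) and S100a4 (0.193). Between the 5 genes themselves the closest pair was Ncr1 and Cd28 at 0.732, and Tcf7 and Tcrg-C1 were 2.36 apart despite r = 0.994, with control means of 42.24 and 0.637 normalized counts. The 6 libraries of each profile are the same ones, split into the same groups, so these values describe shape and say nothing of shared control.

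**Figure D5:**
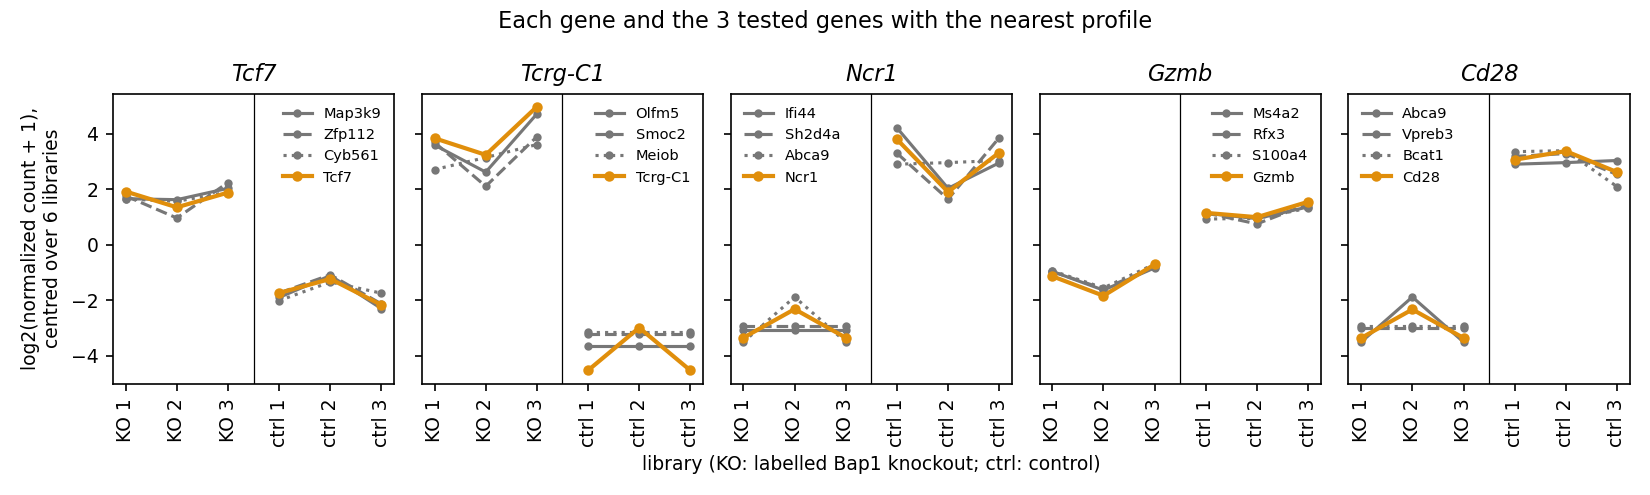
Profiles of each described gene (orange) and the 3 tested genes nearest to it (grey) over the 6 libraries, as log2(normalized count + 1) centred on each gene's mean, with knockout-labelled libraries left of the line. Gzmb and its neighbours, Ms4a2 among them, nearly coincide, while the Tcrg-C1 panel shows the widest step between the groups.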

How the data were processed

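RNA was read in 6 libraries of sorted GMPs, 3 labelled Bap1 knockout and 3 control, grouped by the genotype in the labels. Per the labels' protocols, a SMARTer low-input kit amplified the RNA and sequencing was by Ion Torrent, with no molecular identifiers, so counting intervals and floors cover counting error only. Tools named in the submitters' processing notes are STAR, BWA 0.7.5a, Picard, DESeq2 and HTSeq, with the mm9 and NCBIM37 builds. The sources used here do not give strand use. The deposited signal per gene was a gene count after division by the authors, with 1 size factor for each library: 100% of values were whole multiples of the value of 1 read within 0.01, and dividing by it gave back the reads. 5 rows that name no gene were left out: reads outside genes (38.39 to 40.9% of all reads listed), aligned to several places (26.76 to 28.79%), not aligned (6.3 to 11.62%) and ambiguous (0.12 to 0.13%). Reads with several places were not assigned, which lowers genes with close copies.

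The comparison planned on counts was run on the scaled values instead: limma 3.58.1 (R 4.3.3) with a trend on log2(deposited value + 1), 14391 genes with a mean of at least 10, 2-sided, Benjamini-Hochberg adjusted p under 0.05 over all of them. Fold changes on this scale understate low genes. Count ratios at 1 to 3 reads carry exact 95% intervals. edgeR 4.0.16 and DESeq2 1.42.0 on the recovered reads, other pseudocounts and minimums, TMM scaling, a GC and length correction, the replicate block and leaving out each library were alternatives.

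Symbols, lengths and GC content came from GENCODE M21 (GRCm38, another build than the files), with a symbol for 32897 of the 37620 gene IDs. Promoters are RefSeq's, and gamma chain sequences GENCODE's. The genes and lists were chosen with earlier results of these data known. Named list genes are the up to 4 called genes of each list with the largest difference, filled up with the most abundant uncalled ones; others are said to be chosen after their values were seen.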

Additional observations from a re-analysis of the deposited data

How the results depend on the processing

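The direction of all 5 genes held under every alternative that gave a value, and the sizes for genes at 0 or 1 read in 1 group moved. With a pseudocount of 0.5 Cd28 stood at -6.84. With a pseudocount of 4 the log2 differences were 6.38 for Tcrg-C1, -4.32 for Ncr1 and -4.33 for Cd28, with edgeR 9.19, -7.60 and -7.45, and with DESeq2 9.45, -7.91 and -7.76. The pseudocount sets such sizes by construction, and for the other methods the cause was not tested. A minimum mean of 50 left Ncr1 and Cd28 without a value. Leaving out 1 library at a time gave 3.21 to 3.68 for Tcf7, 7.56 to 8.56 for Tcrg-C1, -6.58 to -5.63 for Ncr1, -2.72 to -2.15 for Gzmb and -6.39 to -5.87 for Cd28. The 41 called T and NK genes became 22 at a minimum mean of 50, where fewer genes are tested, and 29 to 44 with 1 library left out. Over all genes 3858 calls became 2480 to 4150 with 1 library left out, the lowest without control library 2 (2480) and control library 3 (2518). The other alternatives gave up to 4282 calls (DESeq2). The cause of these shifts was not tested. Over 55 named genes and 16 alternatives, 72 calls were lost, 5 were gained and 0 changed direction. Same-numbered libraries did not deviate together over all tested genes (correlations -0.10, 0.04 and -0.06). Such correlations cannot exclude a pairing by number that acts on few genes. With the replicate block 3564 genes and 40 T and NK genes were called, and Cd5 (adjusted p = 0.0502) and Sh2d2a (0.0635) were not. With the GC and length correction Cd5 (0.057), Hcst (0.0507), Lat (0.0872) and Unc13d (0.0771) lost their calls. Scaling moved the median of all genes by at most 0.02. Depth limits the weak genes: 3 reads are 2.665 to 3.426 normalized counts, and changes below that cannot be seen.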
